A study of Mus musculus with 8 samples.

Results

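Cyclopamine was compared with PBS in molar tooth germs from the lower jaw of mouse embryos, across all genes measured. The comparison takes the 2 arrays whose labels name cyclopamine and the 2 whose labels name PBS, which are 4 of the 8 arrays of the series. Pregnant ICR mice, an outbred stock, were injected once into the peritoneum at embryonic day 14, with cyclopamine at 10 mg per kg of body weight or with 1 ml of PBS. The embryos' tooth germs were taken 24 hours later, and 1 array was made from each RNA sample. The other 4 arrays, also from ICR embryos of the same stage, hold 2 samples each after 5E1 (10 mg/kg), an antibody that binds Shh, and after 40-1a (10 mg/kg), an antibody to β-galactosidase that serves as its control. The labels call the samples biological replicates without giving litters, numbers of germs or a genotype, so a p-value covers no more than the spread among these samples, which may be technical. The liquid in which cyclopamine was given is not named either, so the drug and its solvent cannot be told apart.

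Hedgehog ligands such as Shh bind the receptor Ptch1, which otherwise holds the membrane protein Smo inactive. Active Smo, working in the primary cilium, lets the Gli transcription factors switch on their targets, among them Ptch1, Gli1 and Hhip, whose products feed back on the pathway. Cyclopamine is a plant alkaloid that binds Smo and keeps it inactive. In the tooth germ Shh is made by the epithelium, including the enamel knot and later the inner enamel epithelium. It is received by epithelium and dental mesenchyme alike, where it is known for its part in growth and cusp formation.

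The values are MAS5 signals, a linear brightness per probe set that the authors scaled on each array, and genes were compared as log2(signal + 9). All 4 arrays carried the markers of the labelled tissue. Krt14, a keratin of basal epithelium, had signals of 14877 and 19222 after cyclopamine and 10085 and 14225 after PBS, and Msx1, a homeobox gene of dental mesenchyme, 6746 and 2279 after cyclopamine and 2452 and 5649 after PBS. Cyclopamine replicate 1 stood apart in its control probe sets. Its mean 18S ribosomal RNA signal was 2548, against 52.9 to 447.6 on the other 7 arrays, and the ratio of 5′ to 3′ signal was 0.165 for the dap spike-in RNA (others 0.386 to 0.656), 0.196 for thr (0.432 to 0.699) and 0.665 for beta-actin (0.801 to 0.848). Replicates were not the nearest arrays. Over the 12988 genes tested, Pearson's r was 0.964 between both cyclopamine arrays and 0.970 between both PBS arrays, but 0.978 between cyclopamine replicate 1 and PBS replicate 2 and 0.984 between cyclopamine replicate 2 and 40-1a replicate 2. By hierarchical clustering cyclopamine replicate 1 and PBS replicate 2 formed a cluster of their own, while the other cyclopamine and PBS arrays fell with arrays of the antibody groups in different clusters. The pair within that cluster is given below beside each main result.

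**Figure D1:**
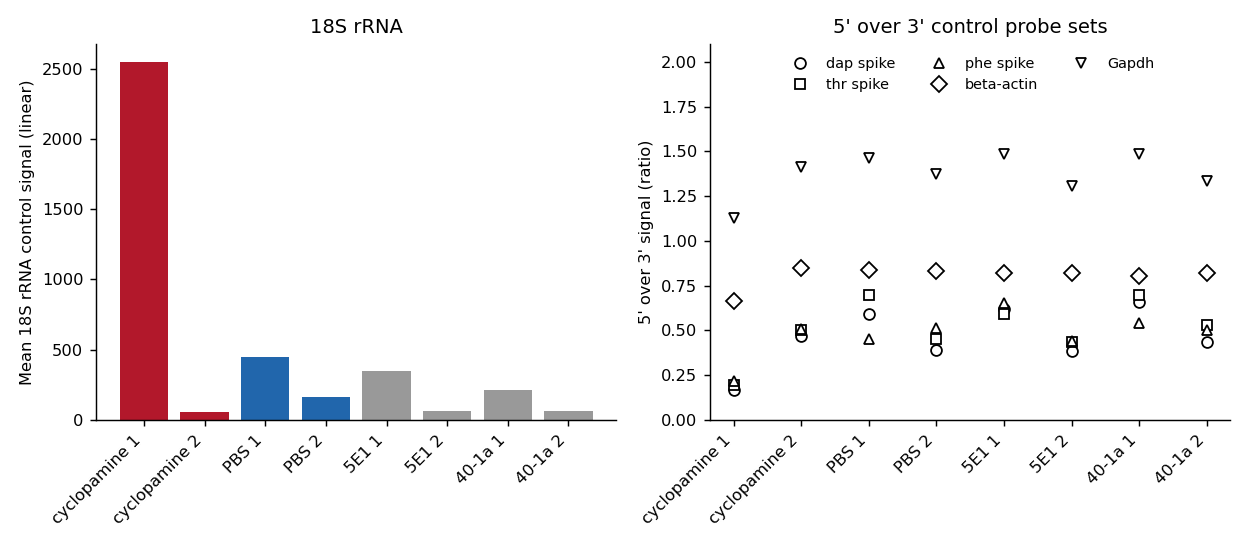
Control probe sets on each array. Left, mean signal of the 18S ribosomal RNA control probe sets (linear axis); right, ratio of 5′ to 3′ signal of 3 spike-in RNAs, beta-actin and Gapdh. Cyclopamine replicate 1 has the highest 18S signal (2548) and the lowest ratio of each kind.

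Few genes stood apart after cyclopamine, and most of those were weakly expressed. Of 12988 genes tested, 0 (0%) had an adjusted p under 0.05 in limma with Benjamini-Hochberg adjustment, the smallest adjusted p being 0.982. At an unadjusted p under 0.05 there were 204 genes (1.57%), 83 of them higher (0.639%) and 121 lower (0.932%) after cyclopamine. The median log2 difference over all genes was 0.02, and 6907 genes (53.2%) were higher after cyclopamine. With median centring of each array in place of the deposited scaling, the median of all genes moved to 0.15 and 70.5% were higher, so small differences are to be read against that shift.

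Counting by array, 39 genes (0.3%) were at least 2-fold higher and 83 (0.639%) at least 2-fold lower after cyclopamine with no overlap between both arrays of each group. The same count gave 28 genes higher (0.216%) and 58 lower (0.447%) for 5E1 against 40-1a, and 24 higher (0.185%) and 30 lower (0.231%) for 40-1a against PBS, which both are controls. Without any limit on size, 2317 genes (17.8%) were higher and 1863 (14.3%) lower in both cyclopamine arrays than in both PBS arrays. An exact permutation test of 2 arrays against 2 cannot give a two-sided p under 0.333, so these counts are descriptions. Among the fifth of genes with the lowest level, at mean signals of 60.5 to 183.8, 24 were at least 2-fold higher and 52 at least 2-fold lower without overlap, against 2 and 3 in the fifth with the highest level.

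The arrays of the antibody groups show where each side of the comparison lay. Of the 39 genes higher after cyclopamine, 7 (17.9%) had both cyclopamine arrays outside the other 6 arrays and 9 (23.1%) had both PBS arrays outside them. Of the 83 lower genes, 21 (25.3%) had only the cyclopamine arrays outside, 7 (8.43%) only the PBS arrays, and 4 both. Over all genes tested the numbers were 834 (6.42%) with only cyclopamine, 432 (3.33%) with only PBS and 39 with both outside. The 39 and 83 genes were picked for a gap between cyclopamine and PBS arrays, which by itself favours arrays that lie outside.

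By their brightest probe sets, the Hedgehog feedback genes Ptch1 and Gli1 did not separate the groups. Ptch1 had signals of 9683 and 5793 after cyclopamine and of 9611 and 8474 after PBS, a log2 difference of -0.27 (SE 0.30) with a 95% interval from -0.97 to 0.44. Gli1 had 2157 and 1193 after cyclopamine and 1070 and 2143 after PBS (0.08, SE 0.40, 95% interval -0.85 to 1.01). In each of these genes the higher cyclopamine array was replicate 1, the array with the high 18S signal, and within its cluster it was close to PBS replicate 2 (Ptch1 9683 against 8474, Gli1 2157 against 2143). Smo itself, the protein that cyclopamine binds, was at 3464 and 3026 after cyclopamine and at 2940 and 2888 after PBS (0.15, SE 0.14). Without cyclopamine replicate 1 the differences were -0.64 for Ptch1, -0.34 for Gli1 and 0.05 for Smo, and without cyclopamine replicate 2 they were 0.10 for Ptch1, 0.51 for Gli1 and 0.25 for Smo.

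Other probe sets of the same genes were less even. A weaker probe set of Ptch1 was at 68.9 and 194.6 after cyclopamine and at 289.5 and 295.2 after PBS, a log2 difference of -1.26 without overlap, and the third differed by -0.12. Hhip, which binds Hedgehog ligands and takes them out of action, was lower by all 4 of its probe sets, and in 2 of them without overlap. Its brightest probe set had 166.8 and 90.7 after cyclopamine against 235.7 and 162.2 after PBS (-0.63, SE 0.46), and another had 71.4 and 60.6 against 265.8 and 166.8 (-1.55). The 3 weaker probe sets of Hhip thus placed the cyclopamine arrays lower than its brightest did. The weaker probe sets of Ptch1 lay on both sides of its brightest. After 40-1a, a control, the brightest probe set of Hhip had 175.9 and 77.7, and the one with -1.55 had 247.2 and 51.9. Replicate 2 of 40-1a was thus below both cyclopamine arrays by each of them.

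Of the other Hedgehog targets, the forkhead genes Foxf1 and Foxd1 were lowest after cyclopamine. Foxf1 had signals of 1394 and 658 after cyclopamine and of 1968 and 2369 after PBS (log2 difference -1.16, SE 0.66), and its second probe set had 200.8 and 222.9 against 513 and 622 (-1.38). Both probe sets separated the groups, though the antibody arrays, at 427 to 2125 by the first, spanned them. Foxd1 was at 96.8 and 73.3 after cyclopamine and at 227.6 and 133.4 after PBS (-0.98, SE 0.39), also without overlap. Foxf2 was at 505.5 and 132.1 after cyclopamine and at 416.9 and 420.0 after PBS (-0.67, SE 0.62), so only cyclopamine replicate 2 was low. Osr2, a zinc finger gene of tooth mesenchyme (-0.70, SE 0.48), and the oncogene Mycn (-0.34, SE 0.32) overlapped between groups. Cdk6, a kinase of the G1 phase, was higher by its brightest probe set, at 1776 and 1457 after cyclopamine and at 1205 and 1222 after PBS (0.40, SE 0.18). A second probe set overlapped between groups (0.26). The weakest was lower without overlap, at 51.2 and 27.5 after cyclopamine and 84.6 and 66.8 after PBS (-0.85), so the gene is uncertain.

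In all, 4 of the 14 Hedgehog targets tested were higher and 10 lower after cyclopamine, with a median of -0.31 beside 0.02 for all genes. With median centring 6 were higher and 8 lower, with a median of -0.18 beside 0.15 for all genes. The array cluster as a block gave a median of -0.12. Of the targets 1 was higher and 2 were lower without overlap, against 17.8% and 14.3% of all genes. The median was 0.02 for cyclopamine replicate 1 against PBS replicate 2 and -0.78 for cyclopamine replicate 2 against the same array, and -0.06 without cyclopamine replicate 2, so the lower values lay in that array. Cyclopamine replicate 2 was also low in 21 dental mesenchyme markers, whose summed signal was 71828 and 44905 after cyclopamine and 71420 and 69260 after PBS, and the part of these markers in the result was not tested. After 40-1a, a control, these markers summed to 71912 and 47241, so its replicate 2 was low as well. The Hedgehog targets summed to 37539 and 29548 after cyclopamine, 38352 and 37890 after PBS, and 42522 and 30682 after 40-1a. In RNA of whole germs, fewer cells of a type and less RNA per cell cannot be told apart. Among 20 pathway components, 10 were higher and 10 lower with a median of 0.01. The Gli inhibitor Sufu (0.28, SE 0.19), the ciliary proteins Evc (0.36, SE 0.33) and Gpr161 (0.29, SE 0.24), the kinesin Kif7 (-0.29, SE 0.20) and the kinase Gsk3b (-0.37, SE 0.24) exceeded 1 SE, and the remaining 19 of the 34 Hedgehog genes were within 1 SE of 0, at -0.46 to 0.28.

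**Figure D2:**
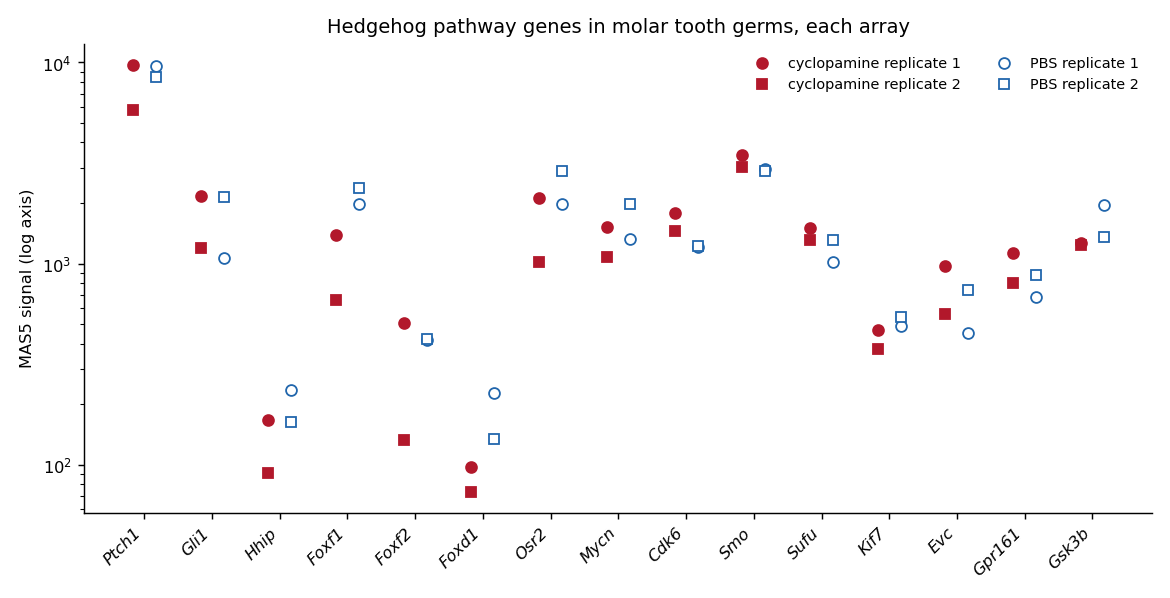
Signal of the 15 named Hedgehog pathway genes on each array, on a log axis. Filled symbols are cyclopamine and open symbols PBS, with circles for replicate 1 and squares for replicate 2; the groups overlap for Ptch1 and Gli1, and cyclopamine lies lower for Foxf1 and Foxd1.

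The antibody against Shh gives a second way of blocking the pathway, measured against its own control and with no array in common. For Ptch1 the 5E1 arrays had 2122 and 1553 against 11322 and 7180 for 40-1a (log2 difference -2.31, SE 0.30), so the effect of cyclopamine minus that of 5E1 was 2.04 (SE 0.43, 95% interval 1.04 to 3.03). For Gli1 the 5E1 arrays had 239.7 and 348.0 against 1196 and 1586 for 40-1a (-2.22, SE 0.40), and the difference between the effects was 2.30 (SE 0.57). Adjusted over all genes neither difference passed (adjusted p 0.9998 in limma; unadjusted p 0.00158 for Ptch1 and 0.00392 for Gli1). Over all genes 0 (0%) passed in this fit and 186 (1.43%) had an unadjusted p under 0.05. With the cluster of the array as a block 3 of the 12988 genes passed in limma, among them Ptch1 at an adjusted p of 0.0169 and Gli1 at 0.029. The clusters were found in the same values that were then tested, so these adjusted p-values cannot be taken at face value. The doses were equal by weight, which does not make them equal in strength.

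The genes in which both effects differed most, by unadjusted p, are given as 5 each way. On the side where cyclopamine lay higher relative to its control than 5E1 did, these were Krt36, a hair keratin (difference of effects 2.13, SE 0.39), the neurotrophin receptor Ntrk2 (1.54, SE 0.31), Ptch1, the organic anion transporter Slco4a1 (1.78, SE 0.41) and Gli1. For Krt36 the arrays read 524 and 589 after cyclopamine, 306.8 and 462.6 after PBS, 140.3 and 172.7 after 5E1, and 414.2 and 561 after 40-1a. The 5E1 arrays were thus the low ones. On the other side stood Dusp6, a phosphatase that acts on ERK and is induced by FGF (-0.96, SE 0.17), the mitochondrial sirtuin Sirt4 (-1.65, SE 0.29), the peptidyl-prolyl isomerase Ppwd1 (-1.81, SE 0.37), the myosin-binding protein gene Mybpc3 (-1.95, SE 0.42) and 1500009L16Rik (-1.14, SE 0.26). Dusp6 read 3759 and 3781 after cyclopamine and 4592 and 4660 after PBS, and 7063 and 6941 after 5E1 and 4327 and 4476 after 40-1a. Both cyclopamine arrays were the lowest of all 8 for Dusp6, and both 5E1 arrays the highest. Across genes the effects of cyclopamine and of 5E1 had a Pearson's r of 0.042 and a Spearman's rho of 0.015 (n = 12988 genes, which are not independent).

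The genes with the widest gap on the higher side had varied roles. Dusp16, a phosphatase that acts on the JNK kinases, had signals of 2316 and 2226 after cyclopamine, against 987 and 1267 after PBS (log2 difference 1.02, SE 0.26). The 4 antibody arrays reached 1668 at most, so both cyclopamine arrays lay above all the others, and the second probe set of Dusp16, at signals under 31, was also higher on average. Ahnak2, a large scaffold protein, was at 278.1 and 283.7 after cyclopamine and at 131.4 and 114.9 after PBS (1.14, SE 0.26), again above the antibody arrays, whose highest was 202.5. Upk3bl, a uroplakin-like membrane protein, was at 1228 and 3072 after cyclopamine and at 552 and 588 after PBS (1.75, SE 0.58). Its cyclopamine arrays differed more from each other than the lower of them did from PBS. Myh8, the perinatal myosin heavy chain of skeletal muscle, had the widest gap, with 192.3 and 617 after cyclopamine against 59.9 and 40.0 after PBS (2.61, SE 1.10). The antibody arrays ran from 31.9 to 547 for Myh8, so neither group was unusual in it.

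For other genes on the higher side the PBS arrays were the unusual ones. Smad2, the signal transducer of TGF-β and activin receptors, was at 1023 and 978 after cyclopamine and at 557 and 168.0 after PBS (1.67, SE 0.49), while the antibody arrays had 850 to 1373. The other probe set of Smad2 pointed the other way, so the gene is uncertain. Rtn1, a reticulon of the endoplasmic reticulum, was at 147.3 and 85.3 after cyclopamine and at 36.9 and 32.4 after PBS (1.48, SE 0.38), with the antibody arrays at 67.0 to 159.1. Bcl2l14, of the Bcl-2 family, was at 74.2 and 103.9 after cyclopamine and at 33.6 and 25.4 after PBS (1.34, SE 0.34), and the antibody arrays were higher than either group. Bves (1.10), a Popeye-domain membrane protein, and Nbeal2 (1.06), a neurobeachin-like protein needed for platelet granules, had PBS below all other arrays in the same way, though the other probe set of Bves was lower after cyclopamine without overlap. The remaining 5 of the 14 widest gaps were those of the dehydrogenase-like Sdr42e1 (1.60), the endocytic adaptor Epn3 (1.30), the mitochondrial protein Mgarp (1.04), the hydrogen peroxide-forming oxidase Duox1 (1.00) and the Rab regulator Dennd1c (1.09), all with antibody arrays on both sides of the gap.

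**Figure D3:**
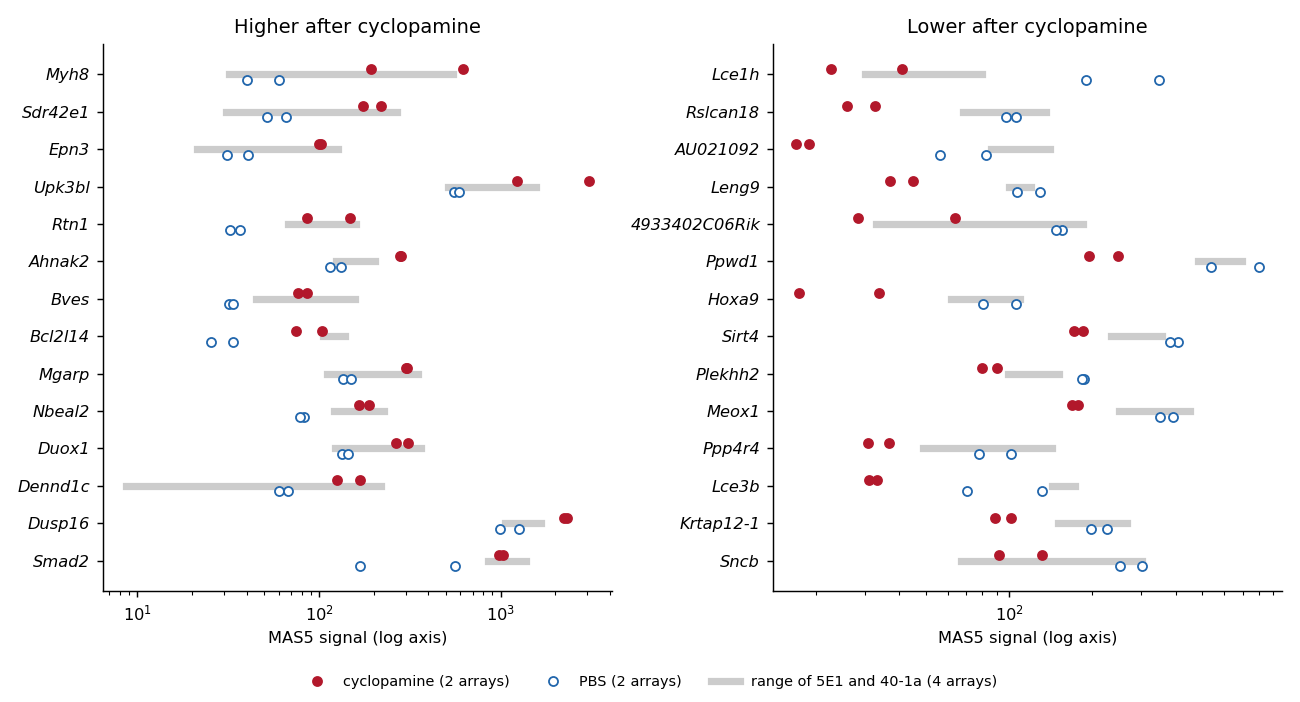
The 14 genes with the widest gap between groups in each direction, among those at least 2-fold apart. Filled points are the 2 cyclopamine arrays, open points the 2 PBS arrays, and grey bars the range of the 4 arrays of 5E1 and 40-1a, on log axes of MAS5 signal; in 11 of the 14 lower genes both cyclopamine arrays lie below every other array.

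On the lower side the cyclopamine arrays were below all the others for 11 of the 14 widest gaps, which a choice by gap favours. Ppwd1, which has WD repeats and is found with the spliceosome, had signals of 194.6 and 247.8 after cyclopamine, against 803 and 538 after PBS (log2 difference -1.54, SE 0.26), and the antibody arrays had 483 to 695. Sirt4 was at 171.4 and 184.1 after cyclopamine and at 409.5 and 380.4 after PBS (-1.11, SE 0.21), with the antibody arrays between the groups at 232.8 to 356.7. Meox1, a homeobox gene of paraxial mesoderm, was at 177.7 and 168.3 after cyclopamine and at 391.2 and 351.6 after PBS (-1.06, SE 0.30). Replicates lay close together in Sirt4 and Meox1, and further apart in Ppwd1.

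The other genes of this kind were weak after cyclopamine, with signals under 102. They were the zinc finger gene Rslcan18 (-1.54), AU021092 (-1.53), Leng9 (-1.35), the homeobox gene Hoxa9 (-1.59), Plekhh2 (-1.05), the phosphatase subunit Ppp4r4 (-1.20), and Lce3b (-1.36) and Krtap12-1 (-1.08), which belong to families of structural proteins of cornified epithelium and hair. Leng9, Hoxa9 and Plekhh2 each had 1 probe set that was higher after cyclopamine. Lce1h, of the late cornified envelope family, had the largest difference of all (40.9 and 22.6 after cyclopamine, 189.0 and 348.6 after PBS; -2.74, SE 0.56), but its antibody arrays were at 29.9 to 79.4, so PBS was the unusual group. Sncb, β-synuclein (-1.26), and 4933402C06Rik (-1.62) had antibody arrays on both sides. All 28 of these genes had an adjusted p of 0.982 in limma.

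Genes measured by several probe sets can be compared across them within each array. Of 4324 genes with at least 3 probe sets of their own, 23 had every probe set higher and 39 every probe set lower after cyclopamine without overlap. By the 1 probe set kept per gene, 17.8% of all genes tested were higher and 14.3% lower without overlap. The count over probe sets was not made for the other pairs of groups, so it has no background here. The higher ones with the widest smallest gap were Krt8, a keratin of simple epithelium (1976 and 2537 after cyclopamine, 1470 and 1442 after PBS; log2 difference 0.62, SE 0.34), Slc2a1, the glucose transporter GLUT1, the ATP synthase subunit Atp5k (0.23, SE 0.13), the membrane protein Vat1 (0.72, SE 0.30) and Abcf3 (0.21, SE 0.18), an ATP-binding protein. These differences were small. Agreement of at least 3 probe sets was the rule by which these genes were picked, and probe sets of 1 array share its RNA. The lower ones were Rsad1 (-1.02, SE 0.49), the growth factor Hgf (-0.67, SE 0.49), which mesenchyme makes for the Met receptor, Entpd1 (CD39; -0.99, SE 0.53), an enzyme that breaks down extracellular ATP, the endoplasmic reticulum oxidase Ero1b (-0.30, SE 0.24) and the muscle ubiquitin ligase subunit Fbxo32 (-0.69, SE 0.61). Entpd1 had signals of 308.7 and 193.9 after cyclopamine against 589 and 418.9 after PBS, and the antibody arrays spanned both groups.

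Genes of glycolysis and of the response to low oxygen were mostly higher after cyclopamine, on both arrays. Hypoxia stabilises the HIF transcription factors, which raise glucose uptake and glycolysis in many tissues. Of 19 genes of this list tested, 18 were higher and 11 of them without overlap, against 17.8% of all genes, and none was lower without overlap. The median log2 difference was 0.26, against 0.02 for all genes. It lay between 0.19 and 0.37 in each of the 4 pairings of a cyclopamine array with a PBS array, at 0.24 for the pair within a cluster, and was 0.18 with the array cluster as a block. Leaving out any 1 of the 4 arrays gave medians of 0.21 to 0.41. With median centring it was 0.38, beside 0.15 for all genes.

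Among these genes Slc2a1, the glucose transporter GLUT1, had signals of 6923 and 6326 after cyclopamine and of 5349 and 4414 after PBS (log2 difference 0.44, SE 0.17), and all 3 of its probe sets separated the groups. Hk2, the hexokinase that starts glycolysis, was at 2295 and 1606 after cyclopamine and at 1266 and 1297 after PBS (0.58, SE 0.19). Both arrays of each group lay outside the antibody arrays, at 1346 to 1542, with cyclopamine above and PBS below them. P4ha2, a collagen prolyl hydroxylase, was at 941 and 932 after cyclopamine and at 611 and 759 after PBS (0.45, SE 0.18). Egln3, a prolyl hydroxylase that marks HIF for destruction, was at 1227 and 1252 after cyclopamine and at 703 and 807 after PBS (0.71, SE 0.35), and its other probe set also separated the groups. None of them passed the adjusted threshold. In the antibody comparison 17 of the 19 genes were higher after 5E1 than after 40-1a, with a median of 0.14. The summed signal of the list was 77861 and 75152 after cyclopamine and 59093 and 65443 after PBS, while the antibody arrays held 62392 to 78755, so the level after cyclopamine was not outside theirs. Epithelial markers were also higher after cyclopamine, as given further on, and their part in this result was not tested.

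**Figure D4:**
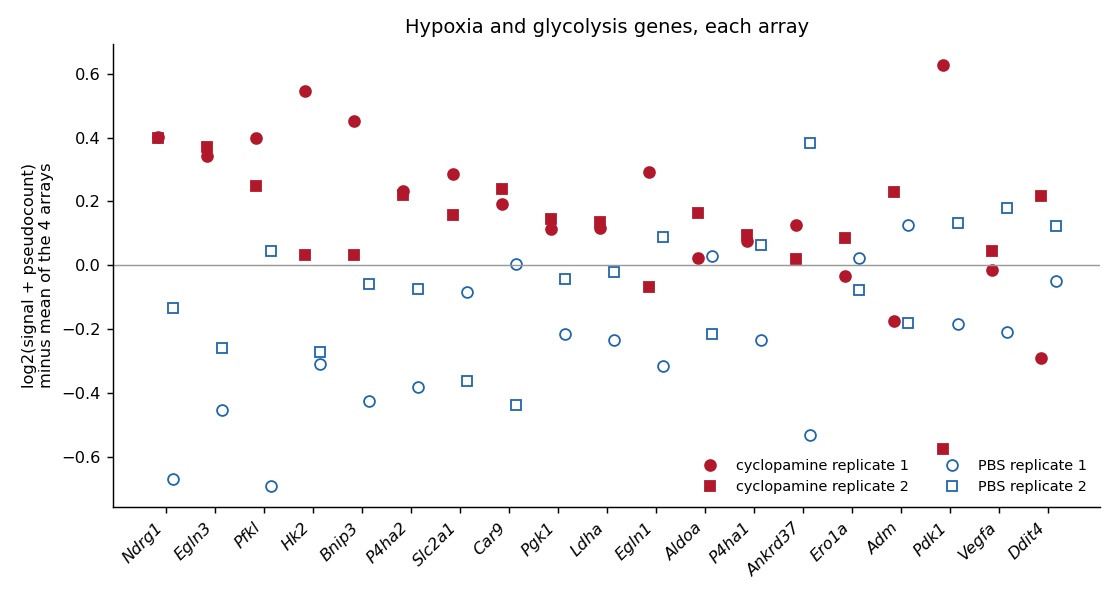
The 19 tested genes of hypoxia and glycolysis, as log2(signal + 9) minus the gene's mean over the 4 arrays. Filled symbols are cyclopamine and open symbols PBS, with circles for replicate 1 and squares for replicate 2; in 11 genes, most of them at the left, both cyclopamine arrays lie above both PBS arrays.

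The promoters of this list are shown because its members were higher together. ACGTG is the usual core of the element that HIF binds. In the 250 bases before the start of transcription, taken from RefSeq on GRCm38.p6, ACGTG occurred on either strand in 15 of 18 genes of the list with a promoter there (83.3%), against 18.5% of 27025 genes. The list was put together from genes known for glycolysis and the response to low oxygen, a choice that itself favours a high share. The windows were not matched for base composition or for their number per gene. The share therefore says nothing about cyclopamine. A match is a string of letters and not a site shown to be bound. The windows of Pfkl, which was also higher without overlap, and of Pdk1 and Adm held no match and are not printed. The windows of 6 genes, all with a match, follow from 5′ to 3′ in the direction of the gene. ACGTG and its reverse complement CACGT are in capitals.
Hk2 (chr6:82774455-82774704, minus strand): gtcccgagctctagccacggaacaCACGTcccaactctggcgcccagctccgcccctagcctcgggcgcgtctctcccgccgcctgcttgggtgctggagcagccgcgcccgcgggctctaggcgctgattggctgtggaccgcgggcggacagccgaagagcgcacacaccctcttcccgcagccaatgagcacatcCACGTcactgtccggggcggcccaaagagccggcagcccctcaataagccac
Slc2a1 (chr4:119108495-119108744, plus strand): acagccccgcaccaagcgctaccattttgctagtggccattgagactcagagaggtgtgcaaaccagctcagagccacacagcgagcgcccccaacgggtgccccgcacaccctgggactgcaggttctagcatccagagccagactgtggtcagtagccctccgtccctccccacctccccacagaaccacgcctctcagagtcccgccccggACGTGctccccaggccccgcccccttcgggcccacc
P4ha2 (chr11:54100674-54100923, plus strand): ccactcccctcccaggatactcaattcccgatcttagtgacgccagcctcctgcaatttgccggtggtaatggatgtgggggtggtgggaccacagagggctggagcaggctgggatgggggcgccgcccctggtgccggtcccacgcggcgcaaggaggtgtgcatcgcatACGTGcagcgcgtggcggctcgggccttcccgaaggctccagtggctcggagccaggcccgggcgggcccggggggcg
Egln3 (chr12:54203875-54204124, minus strand): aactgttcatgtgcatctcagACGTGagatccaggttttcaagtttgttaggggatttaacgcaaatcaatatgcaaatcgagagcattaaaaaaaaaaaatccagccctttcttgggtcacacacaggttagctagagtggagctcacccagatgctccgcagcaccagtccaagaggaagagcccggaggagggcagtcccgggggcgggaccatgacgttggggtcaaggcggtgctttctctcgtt
Pgk1 (chrX:106186850-106187099, plus strand): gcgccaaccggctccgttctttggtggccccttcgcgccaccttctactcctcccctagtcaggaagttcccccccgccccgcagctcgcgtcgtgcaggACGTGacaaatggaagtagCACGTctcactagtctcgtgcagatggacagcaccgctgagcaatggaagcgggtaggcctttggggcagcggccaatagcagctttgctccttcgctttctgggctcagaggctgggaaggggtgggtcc
Ldha (chr7:46845554-46845803, plus strand): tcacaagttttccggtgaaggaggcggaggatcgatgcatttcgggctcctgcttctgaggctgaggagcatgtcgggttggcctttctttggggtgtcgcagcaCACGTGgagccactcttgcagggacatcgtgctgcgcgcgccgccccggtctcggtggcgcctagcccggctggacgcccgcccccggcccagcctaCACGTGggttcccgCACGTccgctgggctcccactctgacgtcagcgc
The Ldha window is the first of 2 for that gene, and the second held no match. The Gli motif GACCACCCA was found on neither strand in the 8 Hedgehog targets with a window, and in 0.255% of all genes, which says only that these letters are not in these windows.

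Genes of oxidative phosphorylation and of the ribosome showed a smaller difference in the same direction. Of 21 respiratory chain genes, 17 were higher and 11 of them without overlap, against 17.8% of all genes, and 1 was lower without overlap. Their median log2 difference was 0.15. Ndufv1, a subunit of complex I, had signals of 5144 and 4818 after cyclopamine and of 3585 and 2706 after PBS (0.68, SE 0.17), and all 3 of its probe sets were higher without overlap, 1 of them barely (4024 against 4022). The antibody arrays, at 3709 to 4299, lay between the groups. Cox4i1, of complex IV, was at 18840 and 18424 after cyclopamine and at 14304 and 15079 after PBS (0.34, SE 0.13). All 15 ribosomal protein genes tested were higher, 7 without overlap against 17.8% of all genes. The list had a median of 0.13 and a range of 0.03 to 0.37. Its summed signal was 338558 and 383731 after cyclopamine, 346470 and 321310 after PBS, and 439743 and 348716 after 40-1a. With quantile normalisation 11 of these genes were higher and 4 lower, with a median of 0.07. Within the cluster of cyclopamine replicate 1 and PBS replicate 2 the medians were 0.10 for the respiratory chain and 0.08 for the ribosome, and without cyclopamine replicate 2 the ribosomal median was 0.04. Differences of this size are close to the shift that median centring made in all genes.

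Markers of epithelium and muscle were higher after cyclopamine, and those of mesenchyme, vessels and macrophages lower, and except for macrophages most of the difference lay in cyclopamine replicate 2. With the array cluster as a block the medians shrank, to 0.01 for dental epithelium, 0.21 for muscle, -0.08 for vessels and -0.06 for macrophages, and those of suprabasal epithelium (-0.08) and dental mesenchyme (0.07) changed sign. Of 24 dental epithelium genes, 23 were higher and 15 of them without overlap, against 17.8% of all genes, with a median of 0.46. Their summed signal was 113803 and 149880 after cyclopamine and 86137 and 102360 after PBS. After 40-1a, a control, it was 87880 and 148557, so its replicate 2 was about as high as cyclopamine replicate 2. Krt19, a keratin of simple and basal epithelium, was at 2246 and 3879 after cyclopamine and at 1624 and 1713 after PBS (0.82, SE 0.46). Krt5, the main keratin of the basal layer, was at 19810 and 27069 after cyclopamine and at 16654 and 17685 after PBS (0.43, SE 0.24), and the splicing regulator Esrp1 differed by 0.56 (SE 0.28). The median was 0.13 for the pair within a cluster and 0.58 for cyclopamine replicate 2 against the same PBS array, and 0.26 without cyclopamine replicate 2.

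All 20 genes of suprabasal oral epithelium, the differentiating layers above the basal one, were higher, with a median of 0.52. Without overlap 8 of them were higher, against 17.8% of all genes. The summed signal of the list was 44829 and 100348 after cyclopamine, against 47727 and 43449 after PBS, so only replicate 2 was high. Krtdap, a protein of differentiating keratinocytes, was at 3678 and 6450 after cyclopamine and at 2478 and 2710 after PBS (0.91, SE 0.73). Krt1, a keratin of cornifying epithelium, was at 3655 and 11633 after cyclopamine and at 3423 and 2892 after PBS (1.05, SE 0.84). Skeletal muscle behaved alike, with 20 of 21 genes higher, against 53.2% of all genes, and a median of 0.99. Only 4 of the 21 were higher without overlap, a share near the 17.8% of all genes. The sums for muscle were 4956 and 22220 after cyclopamine and 8169 and 3808 after PBS, and the median ran from -0.43 for replicate 1 of both groups to 2.27 for replicate 2 of both. Myh3, the embryonic myosin heavy chain, was at 447 and 1470 after cyclopamine and at 446.2 and 124.8 after PBS (1.73, SE 1.00), and Tnnt3, a fast troponin, at 114.9 and 327.4 against 79.8 and 65.1 (1.33, SE 0.78). Without cyclopamine replicate 2 the medians were 0.03 for the suprabasal genes and 0.01 for muscle, and without replicate 1 they were 1.15 and 2.00. Replicate 2 of 40-1a, a control, stood as high, with sums of 109345 and 18864. Among the members tested, the lowest signal on these 4 arrays was 40.0 for muscle and 179.0 for the suprabasal list, so none of those was listed at 0.

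Dental mesenchyme genes were lower in 18 of 21, 6 of them without overlap against 14.3% of all genes, with a median log2 difference of -0.37. Pdgfra, the receptor of PDGF-A, had signals of 3565 and 1973 after cyclopamine and of 4821 and 4832 after PBS (-0.86, SE 0.55), with all 3 probe sets lower. Fgf10, a growth factor made by mesenchyme for epithelium, was weak throughout, at 11.3 and 57.3 after cyclopamine and at 79.7 and 83.5 after PBS (-1.30, SE 0.64). The homeobox genes Dlx6 (-0.79, SE 0.40) and Dlx5 (-0.24, SE 0.16) were also lower without overlap. By the sums given above, replicate 1 was not below PBS. The median was 0.01 for the pair within a cluster, and 0.05 without cyclopamine replicate 2. Matrix genes followed, with 19 of 22 lower and a median of -0.21, which became -0.08 with median centring and -0.10 without PBS replicate 1. They summed to 135581 and 112065 after cyclopamine, 169595 and 135964 after PBS, and 160910 and 110976 after 40-1a. Lum, the proteoglycan lumican, was at 8448 and 4362 after cyclopamine and at 14174 and 10560 after PBS (-1.01, SE 0.79).

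Vessel markers were lower in 15 of 18 genes, 7 without overlap against 14.3% of all genes, with a median of -0.40. Pecam1, an adhesion protein between endothelial cells, had signals of 320.6 and 267.5 after cyclopamine and of 549 and 515 after PBS (log2 difference -0.84, SE 0.43). Emcn, an endothelial sialomucin, was at 405.9 and 561 after cyclopamine and at 873 and 583 after PBS (-0.57, SE 0.30), and the transcription factor Sox17 (-0.82, SE 0.53) and the diaphragm protein Plvap (-0.73, SE 0.54) were also lower without overlap. The median was 0.01 for the pair within a cluster and -0.03 without cyclopamine replicate 2, and the summed signal was 10748 and 8160 after cyclopamine against 11632 and 10873 after PBS. After 40-1a it was 9788 and 8641. Macrophage and leukocyte genes were lower in 15 of 17, 7 without overlap against 14.3% of all genes, with a median of -0.28 that was -0.03 within the cluster and -0.09 without PBS replicate 1. Ctss, a lysosomal protease of these cells, was at 932 and 562 after cyclopamine and at 1411 and 984 after PBS (-0.70, SE 0.45).

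**Figure D5:**
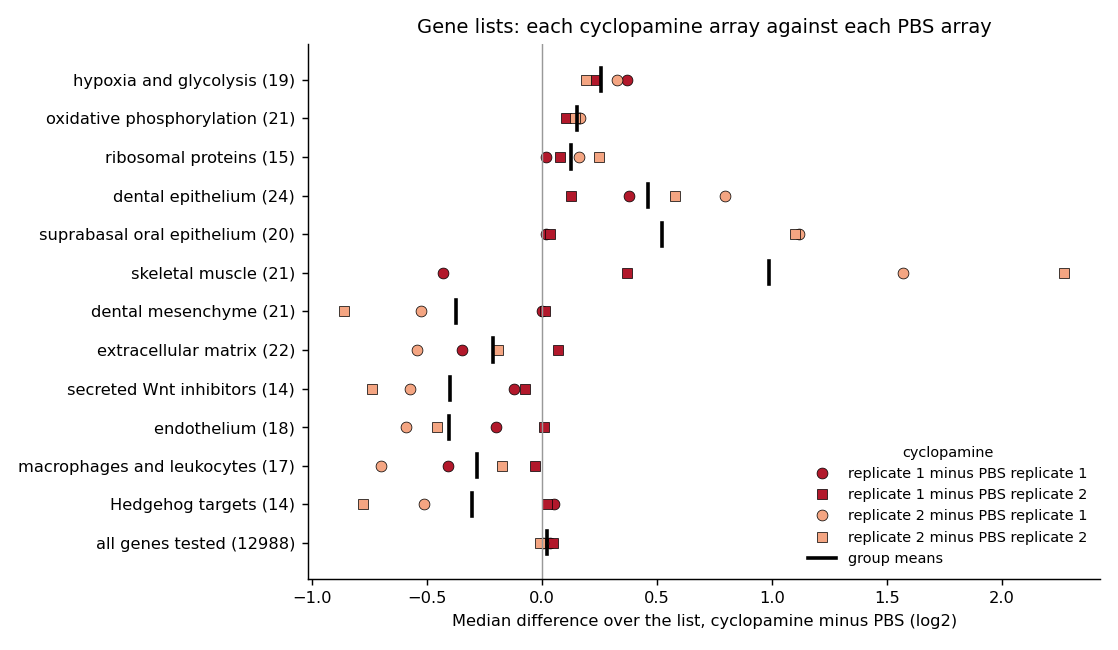
Median log2 difference, cyclopamine minus PBS, over the tested genes of 12 lists and over all genes (number of genes in brackets). Symbols give each cyclopamine array against each PBS array and black bars the group means; the 4 pairings of hypoxia and glycolysis lie between 0.19 and 0.37, whereas those of skeletal muscle run from -0.43 to 2.27.

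Inhibitors of Wnt signalling, which the tooth germ secretes to bound the field of Wnt activity, were lower in 13 of 14 genes, 6 without overlap against 14.3% of all genes. Their median log2 difference was -0.40, with medians of -0.07 for the pair within a cluster and -0.74 for cyclopamine replicate 2 against the same PBS array, and of -0.17 without cyclopamine replicate 2. Dkk3, a secreted protein of the Dickkopf family, was the clearest, at 582.3 and 690 after cyclopamine and at 1279 and 1132 after PBS (-0.92, SE 0.25). The antibody arrays, at 755 to 1130, lay between the groups, and its other probe set differed less and overlapped. Wif1, which binds Wnt proteins, was at 2648 and 2218 after cyclopamine and at 4321 and 4835 after PBS (-0.91, SE 0.39). The antibody arrays ran from 1761 to 4329 for Wif1. Sostdc1, known for limiting tooth number in the mouse, was at 10765 and 7871 after cyclopamine and at 11943 and 11923 after PBS (-0.37, SE 0.20). A second probe set of Sostdc1 differed by -0.18 and overlapped between groups. With the array cluster as a block the median of the list was -0.10. Its summed signal was 33617 and 20345 after cyclopamine, 38326 and 37029 after PBS, and 37177 and 24533 after 40-1a. Replicate 2 of 40-1a, a control, was thus low as well.

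Readouts of Wnt activity were uneven. Of 15 Wnt targets 6 were higher and 9 lower, 4 of them without overlap against 14.3% of all genes, with a median of -0.18. The negative regulators Nkd1 (421 and 242.3 after cyclopamine, 755 and 563 after PBS; -1.01, SE 0.50) and Nkd2 (-0.55, SE 0.35) and the transcription factor Lef1 (1208 and 880 after cyclopamine, 1788 and 1594 after PBS; -0.71, SE 0.39) were lower without overlap. All 4 probe sets of each Nkd gene were lower on average. The median moved to -0.05 with median centring.

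Genes that report FGF and BMP signals had few clear members. Of 11 FGF feedback genes, 3 were higher and 8 lower with a median of -0.03. Dusp6 (-0.29, SE 0.12), given above, and Spry1, an inhibitor of receptor tyrosine kinase signalling (1876 and 1835 after cyclopamine, 2249 and 2312 after PBS; -0.30, SE 0.17), had both cyclopamine arrays below the other 6. Their replicates agreed closely, at 3759 and 3781 and at 1876 and 1835. Of 12 BMP response genes 4 were higher and 8 lower, with a median of -0.09. Id2, an inhibitor of differentiation induced by BMP, was lower by all 3 probe sets without overlap, at 4291 and 3534 after cyclopamine and at 6826 and 4990 after PBS by the brightest (-0.58, SE 0.23). Msx2, a homeobox gene of the enamel knot, was at 600 and 732 after cyclopamine and at 776 and 1095 after PBS (-0.47, SE 0.23), and Grem1, a BMP antagonist, differed by -0.58 (SE 0.37). Of 15 enamel knot signals, the secreted factors that the knot sends to its neighbours and genes linked to it, 7 were higher and 8 lower with a median of -0.07.

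Notch genes lay on both sides without a common direction. Of 17 tested, 6 were higher and 5 lower without overlap, against 17.8% and 14.3% of all genes, with a median of 0.02. Notch1, the receptor, was at 1584 and 2034 after cyclopamine and at 1233 and 1300 after PBS (0.50, SE 0.31), and Nrarp, its feedback inhibitor, differed by 0.41 (SE 0.24). Hey2, a repressor that Notch induces in vessels and heart, was at 139.3 and 153.8 after cyclopamine and at 229.3 and 212.9 after PBS (-0.57, SE 0.24), with both cyclopamine arrays below the other 6. Notch1 and Nrarp are also genes of epithelium, and the part of the epithelial difference in their values was not tested.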

How the data were processed

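Of the 8 arrays, 1 per sample, the 4 of cyclopamine and PBS are compared here. Each deposited value is the linear intensity of a probe set, and the submitters' processing notes name MAS5 as the authors' tool, with no version or hybridisation batch given in the sources used here. The mean signal after trimming 2% at each end was 500.0 on every array, so nothing was rescaled. Of 45101 probe sets, 64 were controls, and the platform annotation gave exactly 1 gene for 34945, several for 932 and none for 9160. For each of 18161 genes the single-gene probe set with the highest mean was kept. Values were taken as log2(signal + 9), where 9 is the rounded 10th percentile, which understates folds of weak genes. A mean signal of 60.5, which marks the 40th percentile, was required, leaving 12988 genes. The number of arrays limits the precision.

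Groups were fitted with limma 3.58.1 in R 4.3.3 (lmFit, eBayes with a trend) on all 8 arrays, with 4 residual degrees of freedom, and p-values were adjusted by Benjamini-Hochberg over all genes tested. The fit was tested on simulated data. A gap is the lowest array of the higher group minus the highest of the lower group, on that log2 scale. The 32 gene lists, the members and the rules were chosen with earlier results of these data known. The genes named are Ptch1, Gli1, Smo and each Hedgehog gene beyond 1 SE. To these come the 14 widest gaps each way among genes at least 2-fold apart, 5 genes each way with at least 3 probe sets all alike, some of the 4 members of each list with the smallest unadjusted p, and 5 genes each way for the difference from the 5E1 effect. Krt14 and Msx1, for the check of the tissue, and Egr3 and Fos in the closing section were chosen after their values were seen. Alternatives were other scalings, pseudocounts (1 and 32), filters, variance models, probe set rules, fold limits (1.5 and 3), a replicate block, an array cluster block, and leaving out each array.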

Additional observations from a re-analysis of the deposited data

Results flagged for a closer look

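The mean signal of the 18S ribosomal RNA control probe sets on cyclopamine replicate 1 was 2548, above both PBS arrays (447.6 and 163.7) and all other arrays. These control probe sets enter no comparison of genes. The same array had a signal of 42.6 at the 3′ control probe set of Tfrc, the transferrin receptor, against 310.4 to 462.7 on the other 7.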

How the results depend on the processing

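No setting tried gave a gene with an adjusted p under 0.05 for cyclopamine minus PBS. With 2 arrays a group the counts of genes at least 2-fold apart without overlap (39 higher, 83 lower) depend on the choices made. They were 60 and 50 with quantile normalisation, 74 and 46 with median centring, 20 and 42 with a pseudocount of 32, 265 and 410 without a filter, 14 and 31 with a stricter one, 1756 and 2650 over all probe sets, 298 and 420 at 1.5-fold and 5 and 8 at 3-fold. Leaving out 1 array gave 64 to 214 higher and 82 to 339 lower, where a lone array makes overlap less likely by construction. The highest of both came without cyclopamine replicate 1, the lowest without cyclopamine replicate 2 for higher and without PBS replicate 1 for lower genes.

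The labels do not say whether same-numbered arrays share a litter or a batch. Deviations of same-numbered arrays correlated at 0.002 for cyclopamine and PBS, and at 0.324 to 0.592 for the other pairs of groups. With the replicate number as a block 0 genes passed (smallest adjusted p 0.702 in limma), and 868 had an unadjusted p under 0.05. With the array cluster as a block 0 genes passed in limma for cyclopamine minus PBS. For the cyclopamine effect minus the 5E1 effect 3 passed: Ptch1 at 2.35 (adjusted p 0.0169 in limma), Gli1 at 2.1 (0.029) and Fos. These p-values come from clusters found in the same values, so they cannot be taken at face value. The block sets the cyclopamine and PBS difference at 0.045 for Ptch1 and -0.12 for Gli1. Leaving out 1 array gave -0.64 to 0.10 for Ptch1 and -0.42 to 0.58 for Gli1.

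Median centring turned the list medians of FGF feedback to 0.10, BMP response to 0.04, enamel knot signals to 0.06, proliferation to 0.10 and cholesterol to 0.12. It raised that of the ribosome to 0.25. Wnt targets were at -0.025 with quantile normalisation and at -0.048 with centring, and FGF feedback at -0.15 with the mean of probe sets and -0.15 with the cluster block. Over the arrays left out, Wnt targets ran from -0.24 to -0.049, FGF feedback from -0.28 to 0.10, BMP response from -0.31 to 0.10 and cholesterol from -0.053 to 0.063. With the cluster block the medians of dental mesenchyme, suprabasal epithelium and matrix changed sign, and those of dental epithelium (0.01), muscle (0.21), vessels (-0.08), macrophages (-0.06), secreted Wnt inhibitors (-0.10) and Hedgehog targets (-0.12) shrank, while that of hypoxia and glycolysis was 0.18. The mean of probe sets turned Cdk6 to -0.059, Mycn to 0.089 and Sufu to -0.19, and leaving out 1 array gave -0.039 to 0.76 for Evc, -1.60 to 0.27 for Foxf2 and -2.26 to 0.033 for Fos, the ends of each range being those without either cyclopamine array. The cause of these changes was not tested.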

Other observations

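The medians of several other groups lay near that of all genes. Of 26 proliferation genes 11 were higher and 15 lower after cyclopamine, with a median log2 difference of -0.03 and a range of -0.29 to 0.22. Of 23 genes of cholesterol synthesis and transport 10 were higher and 13 lower, with a median of -0.01. The primary cilium, the unfolded protein response and the p53 and apoptosis genes had medians of 0.02, -0.04 and 0.04 over 25, 15 and 12 genes. Genes of the xenobiotic and oxidant response had a median of -0.11 over 13 genes. The 12 cartilage genes had a median of -0.03, but they ran from -0.91 to 0.60, and 4 were lower and 1 higher without overlap.

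Of 19 immediate early and heat shock genes tested, 6 were higher and 13 lower, with a median of -0.14. Without overlap 4 were higher and 4 lower, against 17.8% and 14.3% of all genes. Egr3, an early growth response factor, had signals of 1402 and 251.6 after cyclopamine and of 2602 and 2098 after PBS (log2 difference -1.95, SE 1.5). Fos, of the AP-1 complex, was at 455 and 2270 after cyclopamine and at 2919 and 1685 after PBS (-1.12, SE 0.89). The heat shock genes Hspa1a (0.62), Hspa1b (0.42) and Hsph1 (0.27) were higher without overlap by the probe set kept. Other probe sets of Hspa1b and Hsph1 overlapped between groups. Red blood cell genes had a summed signal of 9175 and 1735 after cyclopamine and of 4269 and 3054 after PBS, so the cyclopamine arrays were the highest and the lowest of all 8.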
